A study of Mus musculus with 16 samples.

Results

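The genes described here encode the subunits of oxidative phosphorylation, and they were chosen by symbol alone. A symbol was taken if it began with Nduf followed by a, b, c, s or v and a digit, with Uqcr, with Atp5, or with Cox4, Cox5, Cox6, Cox7 or Cox8, or if it was Sdhb, Sdhc, Sdhd or Cycs. The rule found 80 of the 14925 genes of the deposited tables, in 145 of 30622 3′-UTR regions with a symbol, and each gene was represented by its region with the most reads over all libraries. Of these genes 37 belong to complex I by their symbols, 3 to complex II, 8 to complex III, 15 to complex IV and 16 to complex V, and Cycs encodes cytochrome c. A few of them are not subunits in the strict sense. Cox7a2l encodes a factor that joins respiratory complexes into supercomplexes, Atp5sl and Atp5s encode proteins named after ATP synthase, and Ndufa4 encodes a protein now placed in complex IV.

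Bone marrow-derived macrophages (BMDMs) are macrophages grown in culture from the marrow of mice with a growth factor. Wild-type (WT) cells and cells lacking Cpeb4 in the whole animal (Cpeb4-/-, KO), both given by the labels as strain C57BL/6J 129 and taken from adult mice, were left untreated or exposed to lipopolysaccharide (LPS), which comes from the outer membrane of bacteria, at 10 ng/ml for 9 h. RNA crosslinked to protein was recovered with an anti-CPEB4 antibody (RNA immunoprecipitation, RIP), and the RNA of the whole lysate (Input) was sequenced beside it. All WT libraries carry the number 76 in their titles and all KO libraries the number 73, with 1 library for each genotype, treatment and assay. The labels do not say what these numbers stand for. No difference below therefore has a replicate check, and genotype cannot be told apart from whatever the number marks.

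Oxidative phosphorylation takes place in the inner mitochondrial membrane. Complexes I and II pass electrons from NADH and succinate to ubiquinone, complex III passes them to cytochrome c, complex IV passes them to oxygen, and complex V (ATP synthase) uses the resulting proton gradient to make ATP. Macrophages stimulated with LPS are known to shift from respiration towards glycolysis. CPEB4 binds CPEs, cytoplasmic polyadenylation elements. These are short U-rich stretches of 3′-UTRs that act together with the polyadenylation signal to set poly(A) tail length, translation and stability. In a RIP, mRNAs that CPEB4 binds would be richer than in the Input and richer in the WT than in the KO, where the antibody lacks its antigen.

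The 3′-UTRs of the respiratory genes were short and mostly held no CPE. Their median length was 161 bases against 1014 bases over all genes, and 56 of the 80 had at most 300 bases. Each region was searched on the strand of its transcript, in the sequence of GRCm38 (mm10), for 7 CPE motifs, which may overlap each other. They were TTTTAT, the longer form TTTTAAT, next the still longer TTTTAAAT, besides these TTTTACT, also the form TTTTCAT, likewise the variant TTTTAAGT, and the guanine-containing TTTTGT. Some motif was found in 17 of the 80 genes (21.2%) against 73.7% of all other genes. Short regions held fewer motifs among other genes as well, and within classes of length the share was lower in the respiratory genes in all but the longest class. Among regions of 1 to 150 bases a motif was present in 1 of 35 respiratory genes and in 16.6% of the others, among those of over 150 and up to 300 bases in 3 of 21 and 37.3%, among those of over 300 and up to 600 bases in 4 of 9 and 57.9%, among those of over 600 and up to 1200 bases in 5 of 11 and 79.2%, and in longer regions in 4 of 4 and 94.9%. Cycs held the most, 13, and Atp5g1 held 9. The sites below are a selection, from genes whose WT over KO RIP ratios lay nearer to 0 than the group's median (Sdhc, Sdhd, Cycs and Uqcrfs1), or from genes for which the deposited tables list a CPE prediction (Cycs, Atp5g1, Ndufs4 and Ndufc2). Other genes that meet these conditions are not shown, among them Atp5s and Cox6a2 with a prediction and Cox7a2 with 2 motifs. A link of motifs with the ratios was not tested. They are written 5′ to 3′ with the motif in capitals.
Cycs, chr6:50564929-50564958, minus strand: cctactaaatggTTTTATacttagatttat
Cycs, chr6:50565178-50565207, minus strand: tgtctcatggcTTTTAATgtacaccataat
Sdhc, chr1:171129242-171129271, minus strand: ttctgttctgtTTTTCATttctaggaaaat
Sdhd, chr9:50596351-50596380, minus strand: aaaaacaaaatTTTTAAATaaaatattata
Uqcrfs1, chr13:30540372-30540401, minus strand: ggggacattatTTTTCATctcaaagtggat
Ndufs4, chr13:114287835-114287864, minus strand: ccaatggagatcTTTTATtcttaggaaata
Ndufc2, chr7:97407713-97407742, plus strand: atattttctgagTTTTATgggattttctgt
Atp5g1, chr11:96072389-96072418, minus strand: cctcagtcctgtTTTTATtcatgccccaca
The next polyadenylation signal lay 24 bases after the end of the motif in Ndufs4, 36 in Atp5g1, 47 in Ndufc2, 52 in Uqcrfs1, 69 in Sdhc and 244 and 115 in the Cycs sites. In Sdhd the motif overlapped the signal AATAAA itself. A motif is a match of letters and is not a measured binding site.

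Reads were few for most of these genes. The 8 libraries held between 467696 and 2492300 reads over regions with a symbol, and the respiratory genes together held 695 to 2738 of them. The top 5 genes, Sdhc, Cox7a2l, Sdhd, Atp5d and Cox6b1, held 47.2% of all 13891 reads. Over the 8 libraries 69 of the 80 genes reached 10 reads in total, and 13 had at least 10 in every library. The best covered regions, on GRCm38, were those of Sdhc (chr1:171127165-171129800), Cox7a2l (chr17:83501919-83502602), Sdhd (chr9:50596338-50597084) and Atp5d (chr10:80145494-80145812), and the region of Cycs was chr6:50562563-50565236. The deposited tables give all of them as 3′-UTR regions, and in the annotation used here (GENCODE) each lies inside an exon of its gene except the Sdhd region, which does not lie wholly inside one. In that annotation 7 of the 80 regions used are of nonsense-mediated decay transcripts, not protein-coding ones. Ndufv1, Atp5o, Atp5f1 and Ndufs6 are among them, so their values may not describe the coding mRNA. The untreated KO RIP stood apart as the smallest library, and the share of a library's total implied by the authors' RPKM (called all aligned reads here) that fell in the 3′-UTR regions was 27.5% and 32.1% in the KO RIPs against 49.3% and 70.7% in the WT RIPs and 46.9% to 51.5% in the Inputs. Levels below are counts-per-million (CPM) of the reads over regions with a symbol, not corrected for region length, so they are compared between libraries and not between genes. Cpeb4 itself was present at 130 and 136 CPM in the untreated and LPS WT Inputs and at 52.0 and 52.6 CPM in the KO Inputs, so reads over its 3′-UTR were lower in the KO but remained. The summed level of 8 macrophage markers lay between 1759 and 4507 CPM in every library, whereas lists for T cells, B cells, neutrophils, dendritic cells, fibroblasts and erythroid cells summed to at most 6.41 CPM. These lists were short. The neutrophil list rested on 1 of 5 genes, S100a8, and the others on 2 or 3 genes each. The macrophage list was itself lower in the WT RIP than in the KO RIP, with median log2 ratios of -1.03 untreated and -1.08 after LPS and 5 of 8 genes called lower in each, and its part in the results below was not tested. Of 7 genes known for the LPS response, 6 were called higher after LPS in each genotype's Input by the rule given below. Il6, the remaining gene, went from 0 to 11 reads in the WT Input and from 0 to 7 in the KO Input.

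The summed level of the respiratory genes was lower in the WT RIPs than in any other library. It was 1658 CPM in the untreated WT Input, 1297 in the untreated KO Input, 1443 in the LPS WT Input and 1532 in the LPS KO Input. In the RIPs it was 929 CPM in untreated WT, 1486 in untreated KO, 810 in LPS WT and 1526 in LPS KO. The 95% Wilson interval of the untreated WT RIP (884 to 977 CPM) and that of the untreated KO RIP (1380 to 1601 CPM) did not overlap, and these intervals cover counting error only. With any 1 of the top genes left out the order held, the WT RIPs then lying at 669 to 908 CPM and the KO RIPs at 1234 to 1461. The scale mattered, however. As a share of all aligned reads of the library, in counts-per-million, the RIPs held 454 (untreated WT), 405 (untreated KO), 567 (LPS WT) and 485 (LPS KO), so that on this scale the WT RIPs were slightly above the KO RIPs. In bulk RNA of this kind, fewer cells that express a gene and less of its RNA per cell cannot be told apart.

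**Figure D1:**
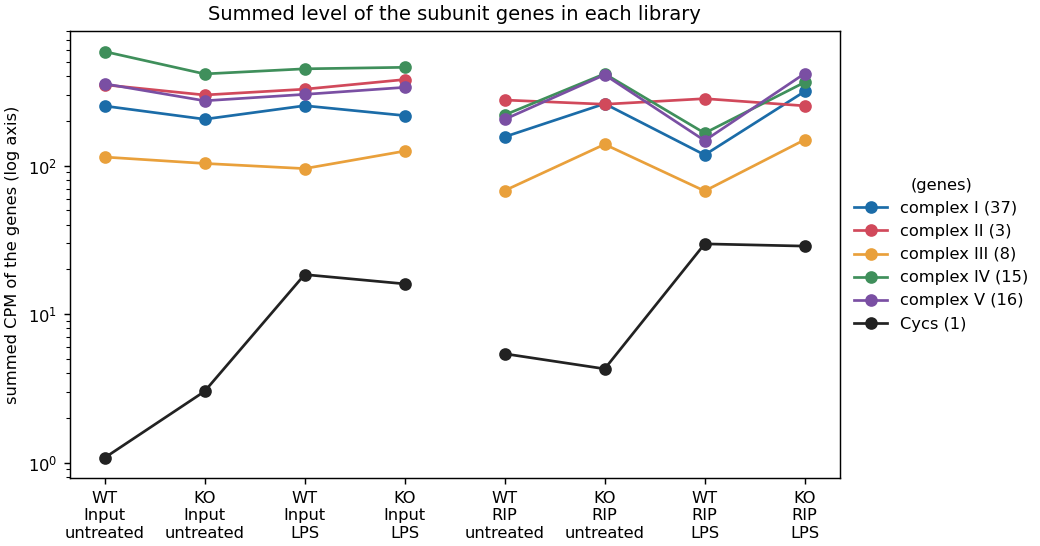
Summed level of the genes of each respiratory complex and of Cycs in the 8 libraries, in CPM over regions with a symbol (logarithmic axis). The complex V genes lie at 205 CPM in the untreated WT RIP and at 408 CPM in the untreated KO RIP, whereas the complex II genes lie at 276 and 259 CPM in the same libraries; on the scale of all aligned reads the WT RIP total is the higher one.

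The WT RIP against the KO RIP asks which mRNAs the anti-CPEB4 antibody recovered because of CPEB4. A gene was measured in a comparison with at least 10 reads in both libraries together, and it was called lower or higher if the log2 ratio was past 0.5 in size and its normal 95% interval from the read counts left out 0. Most respiratory genes were lower in the WT RIP than in the KO RIP and none was higher on this scale. In untreated cells the median log2 ratio of 36 measured genes was -1.02, against -0.10 over all genes, and 19 were lower, where 18.1% of all genes were lower. None was higher, against 12.3% of all genes. After LPS the median of 50 measured genes was -1.47 against -0.04 over all genes, and 35 were lower, against 21.7% of all genes. Again none was higher, against 16.4%. Of the 35 genes measured under both conditions, 17 were lower in both, and the share of all genes lower in both was not counted. On the scale of all aligned reads the median of all genes moved to 0.75 untreated and 1.10 after LPS, and the respiratory genes then had medians of -0.18 and -0.33, with 1 lower and 3 higher untreated and 9 lower and 5 higher after LPS. The shares of all genes called on this scale or with other scalings were not counted, here or below. Such counts therefore show only how the calls move with the scale. Their distance below the median of all genes, 0.92 and 1.42, does not depend on the scale. Near-identical copies elsewhere in the genome, which can draw or lend reads, exist for 19 of the 78 regions searched, among them those of Cox7a2l, Cox6a1, Cox8a, Ndufa7, Uqcrh, Uqcrb, Atp5o and Atp5l, whose counts are therefore less certain. Without such genes 13 were lower untreated and 28 after LPS.

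**Figure D2:**
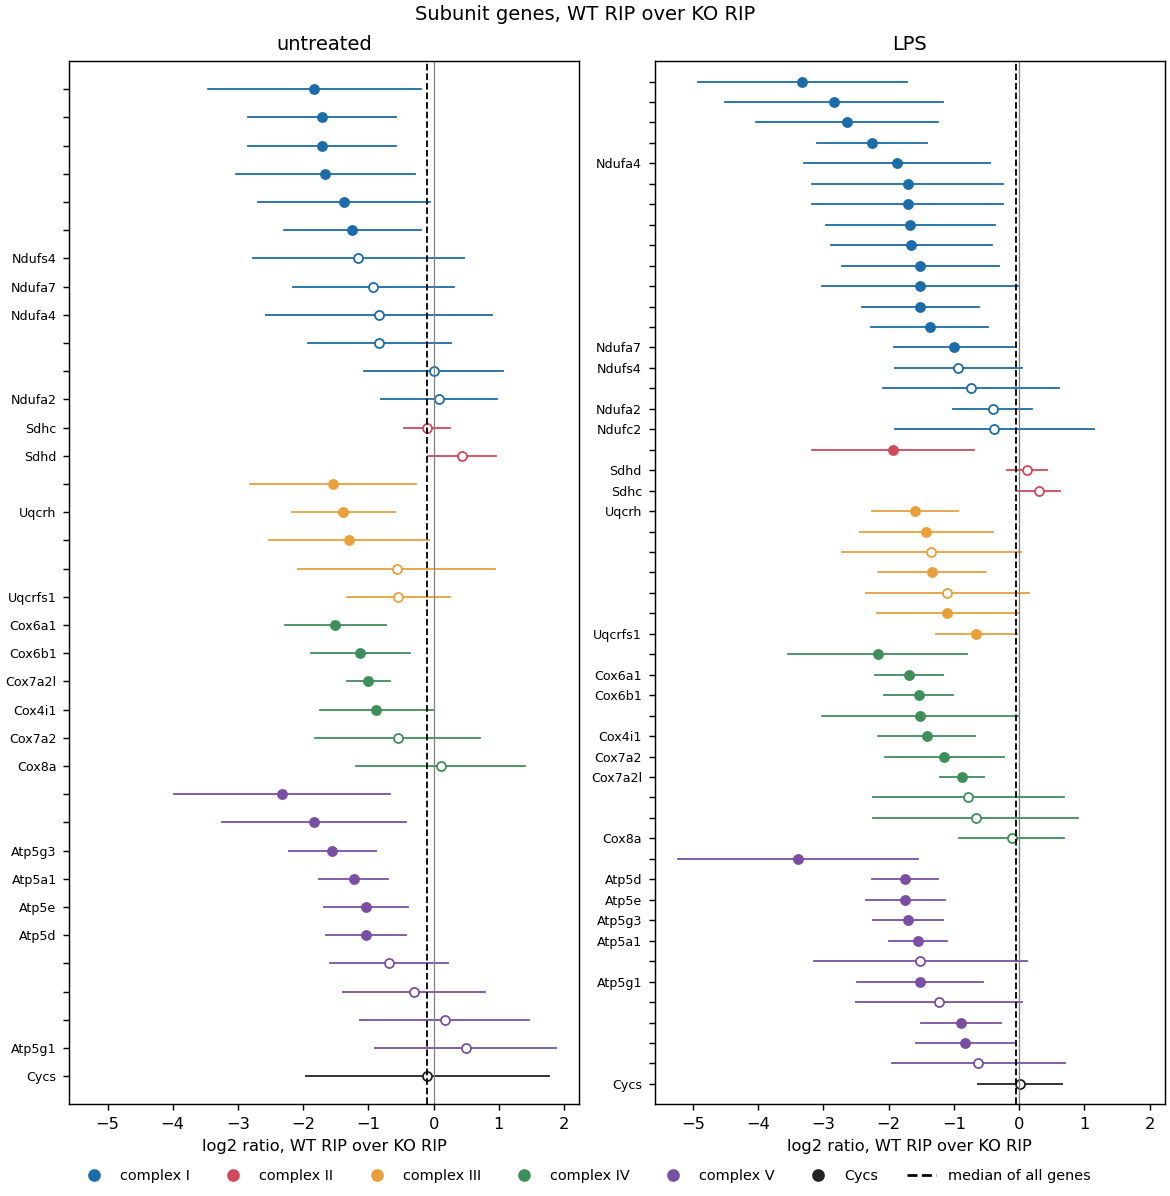
Log2 ratio of the WT RIP over the KO RIP for each measured respiratory gene, untreated and after LPS, grouped by complex, with 95% counting intervals; filled points are genes called lower, names are given for a fixed set of genes, and the dashed line is the median of all genes. Most genes of complexes I, III, IV and V lie to the left of the dashed line, with Sdhc, Sdhd and Cycs near or to the right of it, on the scale of reads over regions with a symbol; on the scale of all aligned reads every point moves to the right by the same amount within a panel.

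Complex I, which oxidises NADH, had the lowest medians of the groups after LPS, -1.20 untreated (12 measured, 6 lower) and -1.58 after LPS (18 measured, 14 lower). Ndufv1, the subunit that holds the flavin and takes electrons from NADH, stood at 7.20 CPM in the untreated WT RIP and 23.5 in the untreated KO RIP, and at 1.2 (3 reads) and 14.9 CPM after LPS. Its log2 ratios were -1.72 (95% interval -2.85 to -0.59) and -3.32 (-4.93 to -1.72). Its Inputs were all close, at 25.8 CPM in untreated WT, 24.1 in untreated KO, 20.6 in LPS WT and 24.0 in LPS KO. The low level was therefore seen in the WT RIPs and not in the Inputs. The region used for Ndufv1 is that of a nonsense-mediated decay transcript, as given above. Ndufs1, a core subunit with iron-sulfur clusters, was lower in both conditions (-1.66 and -1.65) from 7 to 10 reads in each RIP. Ndufa7, an accessory subunit, had 8.40 and 15.0 CPM in the untreated WT and KO RIPs and 8.83 and 17.2 CPM after LPS. It was lower after LPS, with a log2 ratio of -0.99 (-1.91 to -0.07), a value that became 0.15 on the scale of all aligned reads. Ndufa2, an accessory subunit of the NADH-oxidising arm, was no lower by the rule, with 28.8 CPM in the untreated WT RIP, 25.7 in the untreated KO RIP, 27.3 in the LPS WT RIP and 35.6 in the LPS KO RIP (log2 ratios 0.08 and -0.41). Its region overlaps an exon of Tmco6 on the opposite strand, and without strand the reads of the genes cannot be told apart.

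The complex II genes Sdhc and Sdhd stood apart from most genes of the other complexes, whereas Sdhb after LPS, and Sdha as given below, did not. Complex II oxidises succinate and is also an enzyme of the tricarboxylic acid cycle, and Sdhc and Sdhd encode its membrane anchors. Sdhc, the gene with the most reads of the whole group, had 170 CPM in the untreated WT RIP, 182 in the untreated KO RIP, 141 in the LPS WT RIP and 114 in the LPS KO RIP. Its log2 ratios were -0.10 (-0.45 to 0.24) untreated and 0.30 (-0.02 to 0.62) after LPS. Sdhd had 103 CPM in the untreated WT RIP and 74.8 in the untreated KO RIP, and 138 and 126 CPM after LPS, which gave 0.43 (-0.09 to 0.95) and 0.12 (-0.19 to 0.43). Neither was called on this scale, where both intervals leave out the ratios near -1 that were common in the other complexes. Both were higher in the WT RIP under both conditions on the scale of all aligned reads, at 0.74 and 1.44 for Sdhc and 1.27 and 1.26 for Sdhd (untreated and LPS), and with edgeR's TMM scale factors Sdhc was higher after LPS (0.52) and Sdhd untreated (0.63). On the scale of all aligned reads the median of all genes was itself above 0, as given above, and the untreated Sdhc value lay near that median. Sdhb, the iron-sulfur subunit of the same complex with a region of 91 bases and no motif, had 4 and 1 reads untreated and was too thinly covered to be measured. After LPS it had 8 reads in the WT RIP and 11 in the KO RIP and was lower, at -1.93 (-3.18 to -0.68). Sdhc and Sdhd have regions of 2636 and 747 bases with 4 and 1 motifs. Among genes called lower, Atp5a1 had 3 motifs and Ndufb5 had 1, and Cox8a, which was not called, had none. Untreated, the median was -0.54 over 11 measured respiratory genes with a motif and -1.04 over 25 without. After LPS it was -0.93 over 13 with a motif and -1.52 over 37 without. The part of motifs in these ratios was not tested.

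Complex III genes had medians of -1.30 untreated (5 measured, 3 lower) and -1.33 after LPS (7 measured, 5 lower). Uqcrh, the hinge subunit, had 17.4 CPM in the untreated WT RIP, 44.9 in the untreated KO RIP, 14 in the LPS WT RIP and 42.5 in the LPS KO RIP. Its log2 ratios were -1.39 (-2.18 to -0.59) and -1.59 (-2.25 to -0.94). Uqcrfs1, the Rieske iron-sulfur protein, was less far down, with 25.8 and 36.3 CPM untreated and 22.9 and 35.6 CPM after LPS in the WT and KO RIPs. It was lower after LPS, at -0.66 (-1.28 to -0.04), and stood at 0.48 on the scale of all aligned reads. Its Input was also lower in WT than in KO, as given below.

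Complex IV genes had medians of -0.94 untreated (6 measured, 4 lower) and -1.28 after LPS (10 measured, 7 lower). Cox7a2l had 127 CPM in the untreated WT RIP, 252 in the untreated KO RIP, 71.4 in the LPS WT RIP and 131 in the LPS KO RIP. Its log2 ratios were -1.0 (-1.32 to -0.68) and -0.88 (-1.22 to -0.54), and the latter became 0.26 on the scale of all aligned reads. Cox6a1, a nuclear-encoded subunit of the ubiquitous form of the enzyme, had 17.4 and 49.2 CPM untreated and 21.7 and 70.0 CPM after LPS. It was lower in both conditions, at -1.51 (-2.29 to -0.74) and -1.69 (-2.21 to -1.17). Cox6b1, which bridges both monomers of the enzyme's dimer, had 21 and 44.9 CPM untreated and 22.5 and 65.4 CPM after LPS, and was lower in both (-1.12 and -1.54). Cox4i1, the subunit at which ATP slows the enzyme, was lower too, at -0.88 (-1.75 to -0.01) and -1.42 (-2.16 to -0.67). Cox8a, the smallest subunit, was not called. It had 13.2 and 10.7 CPM in the untreated WT and KO RIPs and 17.7 and 18.4 CPM after LPS, with log2 ratios of 0.11 (-1.19 to 1.4) and -0.11 (-0.92 to 0.69), and the untreated interval, with 5 reads in the KO RIP, includes the median of complex IV. Cox7a2 lay between, at -0.55 (-1.82 to 0.72) untreated, not called, and -1.14 (-2.06 to -0.23) after LPS.

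Complex V genes had medians of -1.04 untreated (10 measured, 6 lower) and -1.52 after LPS (11 measured, 8 lower). Atp5a1, the alpha subunit of the catalytic head, had 43.2 CPM in the untreated WT RIP, 100 in the untreated KO RIP, 31.3 in the LPS WT RIP and 91.8 in the LPS KO RIP. Its log2 ratios were -1.23 (-1.75 to -0.70) and -1.55 (-2.00 to -1.10). Atp5d and Atp5e, the delta and epsilon subunits of the central stalk, had nearly equal ratios in this comparison. Atp5d had 34.8 and 70.6 CPM untreated and 22.9 and 76.9 CPM after LPS, with log2 ratios of -1.04 (-1.65 to -0.43) and -1.75 (-2.25 to -1.24). Atp5e had 30.6 and 62.0 CPM untreated and 16.0 and 53.9 CPM after LPS, with log2 ratios of -1.04 (-1.69 to -0.39) and -1.74 (-2.34 to -1.14). Atp5o, which links the head to the peripheral stalk, was also lower in both, from 2 to 10 reads in each RIP (-1.83 and -3.39, the latter with an interval from -5.23 to -1.55).

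Atp5g1 and Atp5g3 encode the same mature protein, the c subunit of the membrane rotor, from mRNAs with different 3′-UTR regions. Atp5g3, with a region of 146 bases and no motif, had 23.4 CPM in the untreated WT RIP, 68.4 in the untreated KO RIP, 20.5 in the LPS WT RIP and 66.6 in the LPS KO RIP, and was lower in both conditions, at -1.56 (-2.22 to -0.89) and -1.70 (-2.24 to -1.16). Atp5g1, with a region of 4252 bases and 9 motifs, had 14.4 CPM and 8.55 CPM (4 reads) untreated and 6.42 and 18.4 CPM after LPS. Its log2 ratio was 0.49 (-0.90 to 1.87) untreated, not called, and -1.52 (-2.49 to -0.55) after LPS. The region of Atp5g1 does not describe a single mRNA end. In the Inputs, 16 of 23, 16 of 20, 47 of 54 and 40 of 48 of its reads (untreated WT, untreated KO, LPS WT and LPS KO) fell in the first 117 bases, which a shorter 3′-UTR of the same gene shares, and in the RIPs 10 of 24, 2 of 4, 11 of 16 and 9 of 16 did. All 9 motifs lie downstream of that stretch.

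Cycs encodes cytochrome c, the soluble carrier between complexes III and IV and a trigger of apoptosis once released. It had 5.40 CPM (9 reads) in the untreated WT RIP, 4.28 CPM (2 reads) in the untreated KO RIP, 29.7 CPM in the LPS WT RIP and 28.7 CPM in the LPS KO RIP. The log2 ratio of the LPS RIPs was 0.01 (-0.63 to 0.66), and its region holds 13 motifs. On the scale of all aligned reads the same ratio was 1.15 and was called higher, so the call rests on the scale. That value lay near the median of all genes on the same scale, given above.

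The Inputs asked whether the mRNA levels differed between the genotypes before precipitation. Here the group lay somewhat higher in WT in untreated cells and differed little after LPS. In untreated cells the median log2 ratio of WT over KO for 37 measured genes was 0.34, against -0.02 over all genes. In WT 5 genes were higher (3.25% of all genes were) and none was lower (4.83% of all genes). They were Cox7a2l (323 CPM in WT and 201 in KO, log2 ratio 0.69), Atp5d (151 and 103, 0.54), Cox6a1 (50.6 and 26.4, 0.93), Cox4i1 (29.1 and 15.1, 0.93) and Ndufa2 (17.2 and 4.52, 1.79 from 16 and 6 reads). After LPS the median of 48 genes was -0.04 against 0.04 over all genes, with 2 genes higher (5.19% of all genes) and 2 lower (4.09%). The higher ones were Ndufa10 and Ndufb7, with 8 and 2 reads in the KO Input. Atp5l was lower at -1.25, and Uqcrfs1, at 14.8 CPM in WT and 26.6 in KO, was lower at -0.84 (-1.52 to -0.15). None of the 5 genes higher in untreated WT was called after LPS, and the difference between the treatments was not tested.

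RIP over Input within a genotype shows how far each mRNA was enriched by the precipitation, and here WT and KO parted. In the untreated WT the median of 34 genes was -0.81 against 0.03 over all genes, with none higher (27.3% of all genes were) and 14 lower (27.3% of all genes). In the LPS WT the median of 54 genes was -1.14 against -0.03, with 3 higher (29.2% of all genes) and 30 lower (32.7%). All 14 genes that were lower untreated were also lower after LPS, and how often this held over all genes was not counted. On the scale of all aligned reads the LPS counts became 9 higher and 17 lower. In the KO the sign was the opposite, with medians of 0.18 for 33 genes untreated (0.02 over all genes) and 0.40 for 50 genes after LPS (0.00 over all genes), although both became negative on the scale of all aligned reads (-0.59 and -0.28). In the untreated KO 11 genes were higher (20.8% of all genes) and 3 lower (14.6%), and in the LPS KO 15 were higher (22.1%) and 6 lower (18.0%). On the scale of all aligned reads these counts turned to 2 higher and 10 lower, and to 7 higher and 17 lower.

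**Figure D3:**
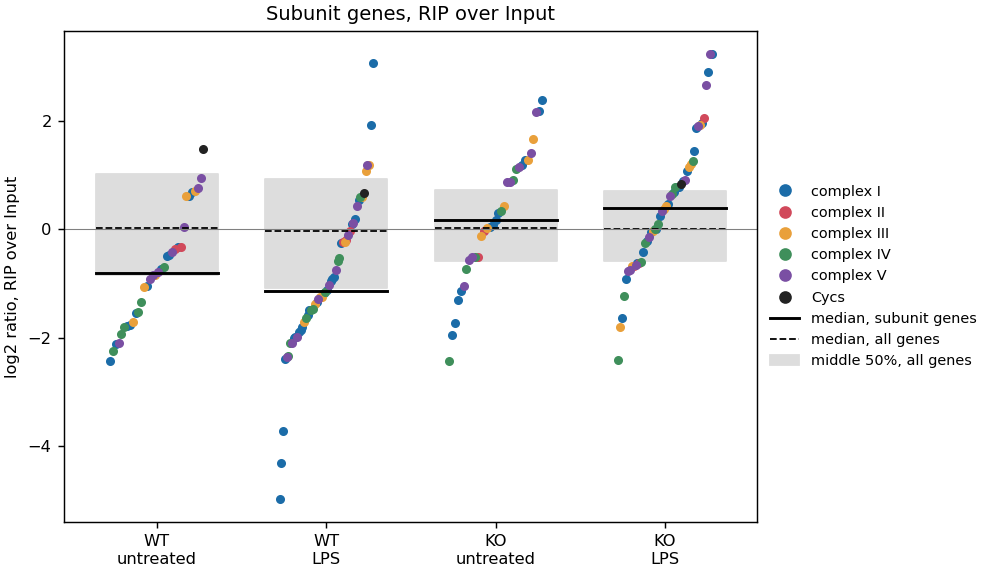
Log2 ratio of RIP over Input for each measured respiratory gene in WT and KO, untreated and after LPS. The WT medians are -0.81 and -1.14 and the KO medians 0.18 and 0.40; on the scale of all aligned reads the KO medians turn negative (-0.59 and -0.28).

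Among single genes, Cox8a had the lowest ratio in the KO under both conditions. The highest were those of Ndufa2 untreated (2.40, from 12 reads in the RIP and 6 in the Input) and of Atp5o and Ndufs1 after LPS (3.25 each, from 10 reads in the RIP and 1 in the Input). Atp5e, which had more reads, was at 13.6 CPM in the untreated KO Input and 62.0 in the RIP, and at 7.99 and 53.9 CPM after LPS, with log2 ratios of 2.16 (1.33 to 2.99) and 2.67 (1.79 to 3.55). In WT its ratios were 0.77 and 0.44, neither called. Cox8a was lower in all RIPs, at 13.2 CPM against 64.6 in the Input of untreated WT, 10.7 against 67.9 in untreated KO, 17.7 against 76.9 in LPS WT and 18.4 against 103 in LPS KO. Its ratios were -2.25, -2.42, -2.10 and -2.41 in that order, so Cox8a was lower in the RIPs of both genotypes. Ndufa7 was likewise lower in all 4 comparisons (-2.11, -1.14, -2.00 and -0.91 in the same order). Atp5d was lower in WT at -2.10 and -2.36, and in the LPS KO at -0.77. Sdhc and Sdhd were nearer to 0 in WT (-0.35 and -0.33 untreated, -0.19 and -0.24 after LPS) and were lower in the LPS KO (-0.61 and -0.67). The 3 genes higher in the LPS WT were Cycs, at 29.7 CPM in the RIP and 18.4 in the Input (0.67, 0.09 to 1.24), Atp5f1 (1.19) and Ndufc2, with 10 reads in the RIP and 0 in the Input, which is at least 2.54-fold higher against a floor of 3 reads in that Input. Cycs (0.84) and Atp5f1 (1.91) were higher in the LPS KO as well. Ndufs6, with 0 reads in the LPS WT RIP and 23 in the Input, was at least 10.1-fold lower there.

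Subtracting the WT over KO ratio of the Inputs from that of the RIPs left the group low. The Input-corrected median was -1.39 for 27 genes untreated (-0.03 over all genes) and -1.35 for 41 genes after LPS (-0.10 over all genes). In untreated cells 14 genes were lower (16.1% of all genes) and none higher (14.5%), and after LPS 23 were lower (21.4%) and none higher (14.1%). Of the 27 genes measured under both conditions, 13 were lower in both, where the share of all genes was not counted. On the scale of all aligned reads the medians were -0.56 and -0.15, with 4 lower and 2 higher untreated and 4 lower and 5 higher after LPS.

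Short regions of genes outside the group were also lower in the WT RIP. Genes outside the group with regions of 1 to 150 bases had median WT over KO RIP ratios of -0.83 untreated and -0.92 after LPS. Among all regions of at most 300 bases, the median was -0.60 for 658 other genes and -1.25 for 20 respiratory genes untreated, and -0.58 for 831 other genes and -1.52 for 32 respiratory genes after LPS. Of these respiratory genes 13 and 23 were lower, and of the others 195 and 286. Ribosomal protein genes, another group with short 3′-UTRs, had medians of -1.03 (34 of 54 lower) and -1.12 (32 of 55 lower), and proteasome subunit genes -0.65 and -0.57. Across the respiratory genes the ratio tended to be higher in longer regions (Spearman rho 0.48 over 36 genes untreated and 0.34 over 50 after LPS, against 0.15 and 0.19 over all genes), a description over genes that share the same libraries. The part of region length in the low ratios was not tested.

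**Figure D4:**
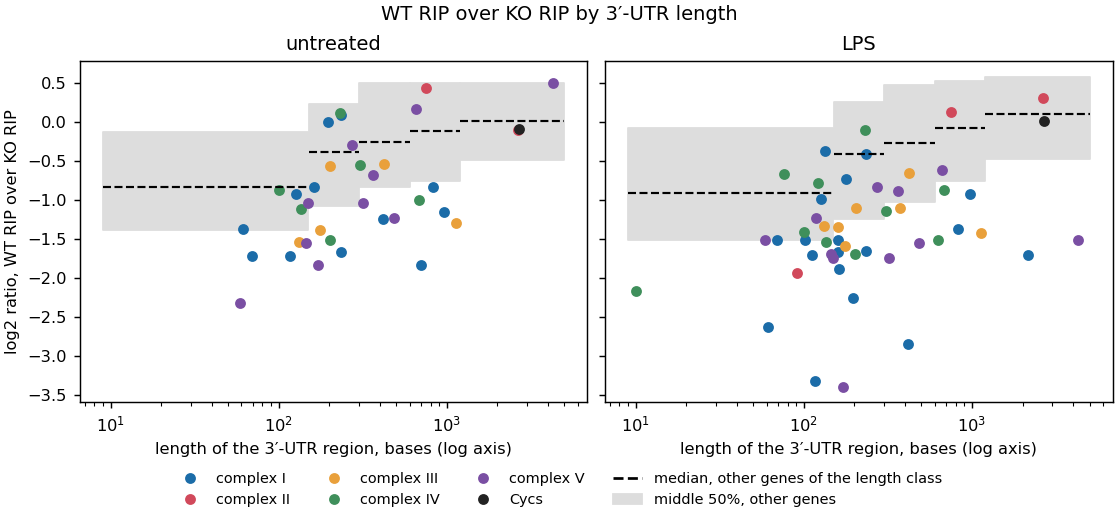
Log2 ratio of WT over KO in the RIPs against 3′-UTR length in bases (logarithmic axis), with respiratory genes as points and the median and middle 50% of the other genes in each length class as a dashed line and grey band. In the class of 1 to 150 bases the other genes have medians of -0.83 and -0.92 and the respiratory genes of -1.46 and -1.52, on the scale of reads over regions with a symbol.

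Regions without a CPE motif were low in the same comparisons. Among other genes with at most 300 bases, those without a motif had WT over KO RIP medians of -0.83 and -0.96 and those with a motif of -0.25 and -0.01. Among other genes with over 300 bases the medians were -0.66 and -0.85 without a motif and 0.01 and 0.10 with one. Respiratory genes with at most 300 bases and no motif stood at -1.37 (19 genes) and -1.54 (29 genes), which was below other genes of that kind. Respiratory genes with over 300 bases and a motif stood at -0.55 (10 genes) and -1.04 (10 genes), which was also below other genes of that kind. In WT RIP over Input, in contrast, respiratory genes of at most 300 bases without a motif (-1.06 untreated and -1.33 after LPS) were near other genes of that kind (-0.88 and -1.14). With all genes limited to regions without a motif, the respiratory median of WT RIP over Input lay 0.12 untreated and 0.11 after LPS above the median of those genes.

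Peaks of MACS, a program that finds stretches where the RIP exceeds its Input, were rare over these genes. Of the 69 genes with at least 10 reads in total, none had a peak in the untreated WT RIP, where 9.69% of all such genes had one, and Atp5f1 and Uqcrb had one in the LPS WT RIP, where 21.9% of genes did. Among other genes with regions of at most 300 bases the shares were lower, 2.91% untreated and 10.4% after LPS. In the KO RIPs Atp5e and Ndufa2 had a peak untreated and Atp5e after LPS, where 1.46% and 1.66% of all genes did.

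LPS over untreated in the Input gives the change of the mRNA level itself, and the group lay near all genes in WT and above them in KO. In WT the median of 46 genes was -0.03 against -0.08 over all genes, with 2 genes higher (17.1% of all genes rose) and 5 lower (23.3% fell). In KO the median of 43 genes was 0.36 against -0.18 over all genes, with 8 higher (18.2% of all genes) and 3 lower (26.8%). The KO count moved with the scale, to 16 higher and 2 lower on the scale of all aligned reads and to 17 higher and 2 lower with the TMM and DESeq2 scale factors. The difference between the genotypes in these counts was not tested. The untreated KO Input had the lowest summed level of all Inputs, 1297 CPM. It enters both this KO change and the untreated WT over KO comparison of the Inputs given above. The results of these comparisons are therefore not independent.

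Cycs rose in every set of libraries. It had 1 read in the untreated WT Input and 35 after LPS (1.08 and 18.4 CPM), 4 and 24 in the KO Inputs (3.02 and 16.0 CPM), 9 and 74 in the WT RIPs (5.40 and 29.7 CPM) and 2 and 25 in the KO RIPs (4.28 and 28.7 CPM). Its log2 changes were 3.14 (1.09 to 5.19), 2.14 (0.76 to 3.53), 2.33 (1.37 to 3.28) and 2.22 (0.49 to 3.94) in that order. All 4 LPS libraries lay above all 4 untreated ones. Of the 41 respiratory genes measured in both genotypes, it was the only one higher after LPS in both Inputs. The share of all genes higher in both was not counted. Cox7a2l fell in every set on the scale of reads over regions with a symbol, from 323 to 160 CPM in the WT Input, from 201 to 131 in the KO Input, from 127 to 71.4 in the WT RIP and from 252 to 131 in the KO RIP. Its log2 changes were -1.02 (-1.25 to -0.79), -0.61 (-0.88 to -0.35), -0.83 (-1.11 to -0.54) and -0.95 (-1.32 to -0.58). The KO Input change was not called with any other scaling (-0.47 on the scale of all aligned reads, -0.41 with TMM and -0.40 with DESeq2 factors), and the WT RIP change of -0.31 was not called on the scale of all aligned reads. Atp5sl fell in both Inputs as well, by 1.03 and 1.06 on the log2 scale.

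The complex II anchors moved in different directions. Sdhd rose in the KO Input from 109 to 202 CPM (log2 change 0.89, 0.60 to 1.17) and in the KO RIP from 74.8 to 126 CPM (0.73, 0.18 to 1.27). In WT it went from 129 to 163 CPM in the Input and from 103 to 138 in the RIP, changes of 0.33 and 0.41 that were too small for a call, although the RIP change was called with the other scalings (0.66 to 0.93). Sdhc fell in the KO RIP, from 182 to 114 CPM (-0.68, -1.10 to -0.26), a call lost with the other scalings (-0.47 to -0.42), and had -0.44, -0.10 and -0.28 in the WT Input, KO Input and WT RIP, none called. Among complex IV genes, Cox4i1 fell in the WT Input from 29.1 to 16.9 CPM (-0.79), while Cox6a1 rose in the KO Input from 26.4 to 65.9 CPM (1.29, 0.74 to 1.84), where its untreated level was the lowest of the 4 Inputs, and stood at 50.6 and 61.1 CPM in the WT Inputs. Cox8a and Cox7a2 also rose in the KO Input (0.60 and 0.88) and had 0.24 and 0.32 in the WT Input. Uqcrh fell in the WT Input (-0.66) and had -0.20 in the KO Input.

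In the RIPs LPS changed few of these genes. In the WT RIP the median of 47 genes was -0.20, equal to 0.04 above the median of all genes, and it turned positive with every other scaling tried (0.32, 0.08 and 0.04). One gene, Cycs, was higher (16.7% of all genes) and 9 were lower (29.7%), which became 7 higher and 3 lower on the scale of all aligned reads, 2 and 6 with TMM and 2 and 7 with DESeq2 factors. The lower ones included Ndufv1 (7.20 to 1.2 CPM), Atp5e (30.6 to 16.0 CPM), Atp5d (34.8 to 22.9 CPM) and Atp5g1 (14.4 to 6.42 CPM). None of these 4 was called in the WT Input, where their log2 changes were -0.35, -0.59, -0.35 and 0.17, and the difference between RIP and Input was not tested. The RIP changes of Atp5e, Atp5d and Atp5g1 were -0.40, -0.086 and -0.62 on the scale of all aligned reads, none called. In the KO RIP the median of 42 genes was 0.10 against -0.20 over all genes, with 2 higher (15.5%), Cycs and Sdhd, and 2 lower (24.4%), Cox7a2l and Sdhc, a split that became 4 higher and 1 lower on the scale of all aligned reads and with DESeq2 factors, and 5 and 1 with TMM.

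**Figure D5:**
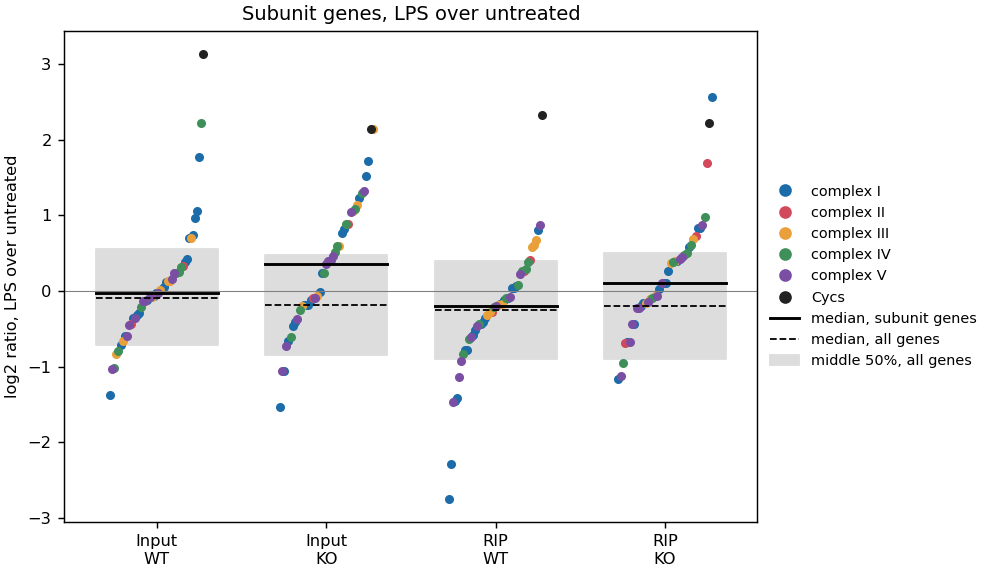
Log2 change with LPS of the measured respiratory genes in the Inputs and RIPs of each genotype. The medians are -0.03 and 0.36 in the WT and KO Inputs and -0.20 and 0.10 in the WT and KO RIPs, with Cycs far to the higher side in all 4; the WT RIP median turns positive with the other scalings.

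Forms that are known from other tissues had few reads here. Cox6a2 and Cox7a1, the forms of heart and skeletal muscle, had 4 and 6 reads over the 8 libraries, Cox4i2, found mainly in lung, and Cox6b2, found in testis, had 2 each, and Ndufa4l2, which is known to rise in hypoxia, had 3. Some subunits that all tissues use were as low, with 2 reads for Cox7c and 1 each for Atp5j and Atp5k, so a few reads over a region do not show that a form is absent. Atp5s had 7 reads, all but 1 of them in the WT RIPs. Ndufs4, an accessory complex I subunit with a CPE prediction and 5 motifs, went from 1 to 13 reads in the WT Inputs and from 3 to 12 in the KO Inputs with LPS (log2 changes 1.78 and 1.52, neither called), and its WT over KO RIP ratios were -1.15 and -0.93, also without a call. Atp5g2, Cox8b and Cox8c were not analysed here.

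Other genes of mitochondrial energy metabolism set the group in context. Respiratory genes outside the naming rule, 5 in all, included Sdha, the flavoprotein of complex II, and Ndufab1, the acyl carrier protein of complex I, both lower in the WT RIP (-0.71 and -1.70 untreated, -0.61 and -1.25 after LPS). The 42 assembly factors of the complexes had WT over KO RIP medians of 0.02 (25 measured, 2 lower and 1 higher) and 0.04 (27 measured, 5 lower and 1 higher). The 17 regulators of mitochondrial DNA expression and biogenesis had medians of 0.01 and 0.10, and the 16 enzymes of the tricarboxylic acid cycle -0.25 (2 of 13 lower) and -0.13 (2 of 13 lower). Glycolytic genes were low in the WT RIP as a list, with medians of -0.81 (8 of 17 lower, 3 higher) and -1.23 (11 of 18 lower, 2 higher). In the Inputs LPS raised 12 of 19 glycolytic genes in WT (median 0.78) and 15 of 19 in KO (median 1.14), among them Hk2 (2.17 and 2.18), the glucose transporter gene Slc2a1 (2.66 and 2.98) and Pfkfb3 (3.72 and 4.01), where the respiratory medians were -0.03 and 0.36. The tricarboxylic acid cycle enzymes had LPS medians of -0.12 and 0.02, with Idh2 lower in both genotypes (-1.88 and -1.99).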

How the data were processed

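RIP and Input RNA of WT and KO BMDMs were sequenced, 16 samples forming 8 libraries whose 2 lanes are summed in the deposited tables. The authors aligned 100-base single reads to mm10 with Bowtie2 2.2.2 in local mode, removed duplicates with sambamba, and counted any overlap with Ensembl 3′-UTR regions, with no strand stated, so reads from antisense or overlapping genes cannot be told apart, and reads reaching into a short region count in full. The deposited read counts per region were used for every ratio. The deposited RPKM served to recover the library totals. The deposited score, the highest MACS 1.4.2 peak score over a region, gave the peaks. The deposited log2 fold changes, p-values and their adjusted values hold the authors' own comparisons and were not used. Other deposited columns give position, length and CPE prediction.

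The 495 of 31117 regions without a symbol, from 0.902% to 1.04% of the reads of a library, were left out. For each symbol the region with the most reads was taken, columns were scaled to their sums (929054 to 1897360 reads in the Inputs, 467696 to 2492300 in the RIPs), 1 read was added, and log2 ratios got normal 95% intervals from the counts. Intervals and floors (3 reads) cover counting error only. With 1 library per group there was no test, and a call compares 2 libraries, not the conditions. The rule was also run on simulated counts that held counting error only, so that run cannot show how it behaves with variation between replicate libraries. Members and gene lists were chosen with earlier results of these data known. The text names the 2 genes with the most reads of each complex, the 5 highest and lowest WT over KO ratios per treatment and the 3 highest and lowest LPS changes of the WT Input (at least 50 reads), paralogue sets and genes with a CPE prediction; other genes are named for calls at the ends of a comparison, after their values were seen. Sequence came from GRCm38 and annotation from GENCODE M21, where 73 of 80 regions lie inside an exon of their gene, 6 overlap an exon of another gene, and 19 of 78 regions searched have a near-identical copy elsewhere (at least 95% identity over 90% of the region). Alternatives covered scaling (library totals, TMM, DESeq2), reads added, read minimum, region, member filters, call rule, length, motifs and depth. Tools were Python 3.11.15, pandas 2.3.3, R 4.3.3, edgeR 4.0.16 and DESeq2 1.42.0. 1 measured gene of the group is counted in the summaries but not reported singly here.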

Additional observations from a re-analysis of the deposited data

Results flagged for a closer look

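There were 5 genes that were enriched in the KO RIP over its Input while depleted in the WT RIP over its Input under the same treatment, out of 9 pairs of comparisons examined over all members. The share of all genes with such opposite calls was not counted. The differences were not tested, since each value rests on 1 pair of libraries. In untreated cells these were Atp5g3 (-0.91 in WT and 0.88 in KO) and Cox6a1 (-1.52 and 0.92). After LPS they were Atp5a1 (-0.75 and 0.62), Ndufa10 (-0.96 and 1.86) and Ndufb7 (-1.90 and 2.90). The KO Input held 8 reads of Ndufa10 and 2 reads of Ndufb7 after LPS, and on the scale of all aligned reads the KO values of Atp5g3, Cox6a1 and Atp5a1 became 0.11, 0.15 and -0.07, none called.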

How the results depend on the processing

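No paired analysis was possible because each genotype, treatment and assay had 1 library, and for the same reason no replicate could be left out. Of the 168 recomputed distances between the group's median log2 ratio and that of all genes, 141 moved by less than their counting error. These include the distances on library totals and with TMM and DESeq2 factors, which only rescale the columns and cannot move such a distance. The distance below all genes in WT over KO RIP kept its direction in every setting, from -1.11 to -0.33 untreated and from -1.48 to -0.61 after LPS. Without a read minimum it was -0.55 and -1.0. With at least 50 reads it was -1.02 after LPS, RIP over Input in the LPS KO was 0.095 and the LPS change of the KO RIP turned to -0.052. With the longest region per symbol the Input-corrected distance was -1.04 untreated.

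The settings of this paragraph were chosen after seeing the data. With regions of at most 300 bases the distances were -0.63 and -0.87 for WT over KO RIP, -0.50 and -0.58 for WT RIP over Input, -0.64 and -0.57 after Input correction (untreated and LPS) and 0.30 for the LPS change of the KO Input. With regions without a CPE motif they were -0.33 and -0.61, 0.12 and 0.11 (reversed), and -0.55 and -0.35 in the same order, 0.48 and 0.65 for KO RIP over Input, and 0.25 for the LPS change of the KO Input. With columns thinned to the smallest, they were -1.20 for WT over KO RIP after LPS, -0.65 for WT and -0.085 (reversed) for KO RIP over Input after LPS, 0.23 for the LPS change of the KO Input and -0.87 after Input correction with LPS, and Uqcrh turned to 0.036 in the last. One more, leaving out genes with a near-identical copy, moved no distance past its counting error.

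On library totals the WT over KO RIP ratios after LPS of Cox7a2l, Ndufa7 and Uqcrfs1 turned to 0.26, 0.15 and 0.48, the KO RIP over Input of Atp5a1 after LPS to -0.066, and the Input-corrected LPS ratios of Cox7a2, Cox7a2l and Ndufa7 to 0.11, 0.039 and 0.11. The cause was not tested. The 19 and 35 genes lower in the WT RIP (untreated and LPS) became 1 and 9 on library totals, 8 and 12 with at least 50 reads (of 12 and 17 measured), 7 and 12 when thinned, 4 and 14 with a chi-square test and Benjamini-Yekutieli adjustment, 0 and 8 with edgeR's exact test at a preset biological coefficient of variation of 0.2, and 0 and 0 at 0.4, where all genes gave 0 and 1 lower calls. Shares of all genes were not counted on library totals, with at least 50 reads or when thinned. Those with the chi-square test and with edgeR at 0.2 are not given here. These counts therefore show only how the calls move with the setting. Depth limits single genes: 20 of the 80 were measured in none of the 12 comparisons of 2 libraries.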
